A study of Mus musculus with 13 samples.

Results

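The nuclear genes for subunits of the mitochondrial respiratory chain, with the Nduf-named factors that assemble complex I, were examined in livers of mice with a ligated bile duct. Members were the genes whose mouse symbol begins with Nduf, Uqcr or Cox4 to Cox8, or is Sdha, Sdhb, Sdhc or Sdhd, and whose mean raw count was at least 10 in at least 1 of the 3 deposited tables. Of the 23785 genes listed there, 77 matched by symbol and 72 genes had enough counts. The other matches, at lower counts, were Cox4i2, Cox6a2, Cox7b2, Cox8b and Cox8c. The 72 genes comprised 7 core and 29 accessory subunits of complex I, 8 complex I assembly factors, 4 subunits of complex II, 8 of complex III, 12 of complex IV (with Ndufa4 counted there), 3 tissue isoforms of complex IV (Cox6b2, Cox7a1 and Ndufa4l2) and the pseudogene Ndufs5-ps.

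The respiratory chain lies in the inner mitochondrial membrane, where it passes electrons to oxygen and pumps protons. Complex I takes electrons from NADH and complex II, succinate dehydrogenase, takes them from succinate. Both hand them to ubiquinone, complex III passes them on to cytochrome c, and complex IV, cytochrome c oxidase, reduces oxygen to water. Hepatocytes are rich in mitochondria, and retained bile acids are known to impair mitochondrial respiration.

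Liver RNA was sequenced from 3 groups of C57 mice aged 3 months, male per the study's methods. The no BDL mice (n = 5) were non treated, with neither ligation nor oligonucleotide. The miR-Ctrl BDL mice (n = 4) and the anti-miR-873-5p BDL mice (n = 4) underwent bile duct ligation (BDL) and, per those methods, were injected on days 3 and 5 with 60 µg of a control oligonucleotide or of a hairpin inhibitor of miR-873-5p in a lipid reagent, and the livers were taken on day 7. Ligation, surgery, oligonucleotide and reagent therefore cannot be told apart when either group is set against no BDL, and both such comparisons share the same 5 mice. The table that holds the BDL groups alone leaves out miR-Ctrl BDL mouse 3 and mouse 2 of the inhibitor group, which leaves 3 against 3.

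Total counts ranged from 12185333 to 19689037 per mouse. Alb, serum albumin, marked the tissue as liver in every mouse, at 76458 to 89824 normalized CPM (counts scaled to a common effective library size) without BDL, 34304 to 64070 in miR-Ctrl BDL and 30562 to 66371 in anti-miR-873-5p BDL. Gnmt, the known target of miR-873-5p, was at 1522 ± 279.5 (SD, n = 5), 533.2 ± 90.4 and 818.3 ± 507.2 (SD, n = 4 each) normalized CPM without BDL, with the control and with the inhibitor. Its log2 fold changes against no BDL were -1.49 ± 0.19 and -0.88 ± 0.39 (SE, edgeR adjusted p = 0.000546 and 0.135). Between the BDL groups, in the table of 3 against 3 mice, the log2 fold change was 0.10 ± 0.38 (SE, edgeR adjusted p = 0.970). The libraries differed in composition. The 20 most abundant genes took 30.8% to 41.4% of the counts without BDL, 19.6% to 22.1% in miR-Ctrl BDL and 18.4% to 21.1% with the inhibitor. Mup1, a major urinary protein, stood at 23463 to 75607, 54.8 to 453.8 and 174.8 to 2665 normalized CPM.

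That difference in composition sets how the fold changes read. They were scaled with TMM, which holds the typical gene near 0, so that lower means lower relative to the typical gene. With counts divided by library size alone, the median of all genes was 0.79 (miR-Ctrl BDL) or 0.82 (anti-miR-873-5p BDL) above no BDL on the log2 scale, and the median of the respiratory chain genes turned from -0.59 and -0.46 with TMM to 0.21 and 0.34. As a share of all counts the 72 genes together took 0.413% to 0.615% without BDL, 0.516% to 0.579% in miR-Ctrl BDL and 0.547% to 0.681% with the inhibitor, so the groups overlapped. A scaling shifts all genes of a library together. The distance from the members' median to that of all genes can therefore hardly move with the scaling, and it is no check of the result. That distance was -0.57 with TMM and -0.58 with library size alone in miR-Ctrl BDL, and -0.46 and -0.48 in the inhibitor group.

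**Figure D1:**
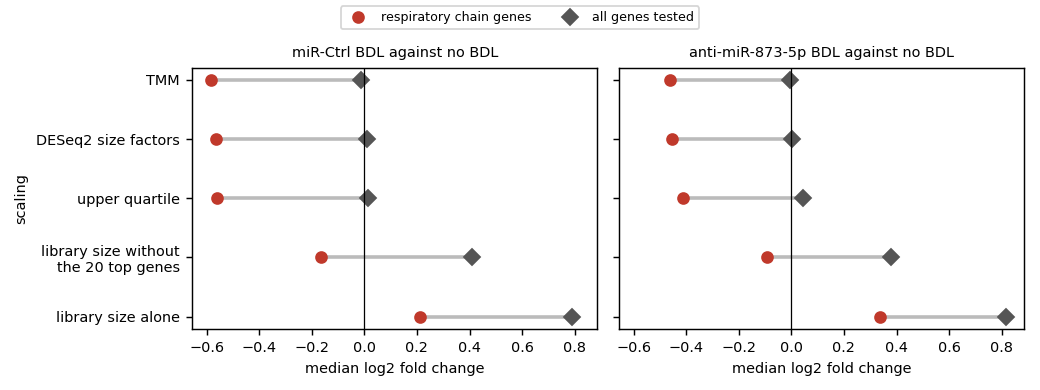
Median log2 fold change (x axis) of the respiratory chain genes (circles) and of all genes tested (diamonds) under 5 scalings (y axis), for each BDL group against no BDL. A scaling shifts both medians together, so the members lie left of all genes under each scaling shown. The members' median turns from below to above 0 with library size alone.

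Promoters are printed because most of these genes moved in 1 direction. RefSeq (GRCm38.p6) gave a window from 250 bases before to 50 bases after the start site for 59 of the 72 genes. Both strands were searched for the core letters of 4 transcription factors known from respiratory chain promoters, and matches are in capitals. Each share is followed by those among all 27025 promoters and among 16332 promoters of protein-coding genes in the count tables. The NRF1 core GCATGCGC was in 9 of the 59 windows (15.2%) against 3.05% and 4.18%. The ETS core CCGGAAG, bound by GABP, was in 13 of the 59 windows (22.03%) against 9.93% and 13.5%. The YY1 core AAGATGGC was in 8 of the 59 windows (13.6%) against 3.19% and 3.72%, and the ERR core CAAGGTCA in 2 of the 59 windows (3.39%) against 1.76% and 1.44%. GCATGCGC overlaps its own reverse complement, so that a single place can match on both strands. The first 6 windows belong to complex II subunits and to genes of complexes I, III and IV that were lower in miR-Ctrl BDL, Ndufs4 shows a YY1 core, and Cox7a2l is a gene that was not lower.
Sdhb, chr4:140961021-140961320, plus strand: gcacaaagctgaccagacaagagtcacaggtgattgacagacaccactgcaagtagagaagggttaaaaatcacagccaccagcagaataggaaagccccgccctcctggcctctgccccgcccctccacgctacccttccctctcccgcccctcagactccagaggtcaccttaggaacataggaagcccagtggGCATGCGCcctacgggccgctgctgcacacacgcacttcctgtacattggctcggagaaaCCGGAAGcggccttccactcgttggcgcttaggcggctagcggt
Sdhd, chr9:50603800-50604099, minus strand: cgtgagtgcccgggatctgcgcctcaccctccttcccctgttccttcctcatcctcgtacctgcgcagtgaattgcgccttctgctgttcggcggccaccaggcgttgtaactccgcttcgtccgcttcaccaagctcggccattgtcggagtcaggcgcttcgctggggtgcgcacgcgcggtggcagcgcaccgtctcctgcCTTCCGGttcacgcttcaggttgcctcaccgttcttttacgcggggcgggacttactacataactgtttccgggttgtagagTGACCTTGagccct
Ndufa6, chr15:82354242-82354541, minus strand: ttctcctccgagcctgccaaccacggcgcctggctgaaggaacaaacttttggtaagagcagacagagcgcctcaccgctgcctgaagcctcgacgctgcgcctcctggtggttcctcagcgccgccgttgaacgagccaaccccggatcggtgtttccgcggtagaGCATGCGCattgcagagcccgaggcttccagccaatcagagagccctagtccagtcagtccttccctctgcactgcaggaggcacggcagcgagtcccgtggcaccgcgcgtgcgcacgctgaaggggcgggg
Uqcrc1, chr9:108936398-108936697, plus strand: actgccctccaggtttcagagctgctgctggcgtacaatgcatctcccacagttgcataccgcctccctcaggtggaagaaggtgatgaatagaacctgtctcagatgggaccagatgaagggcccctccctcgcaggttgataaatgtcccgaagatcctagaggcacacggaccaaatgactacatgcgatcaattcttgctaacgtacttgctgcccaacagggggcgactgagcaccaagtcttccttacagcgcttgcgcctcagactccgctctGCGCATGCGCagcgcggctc
Uqcr11, chr10:80406772-80407071, minus strand: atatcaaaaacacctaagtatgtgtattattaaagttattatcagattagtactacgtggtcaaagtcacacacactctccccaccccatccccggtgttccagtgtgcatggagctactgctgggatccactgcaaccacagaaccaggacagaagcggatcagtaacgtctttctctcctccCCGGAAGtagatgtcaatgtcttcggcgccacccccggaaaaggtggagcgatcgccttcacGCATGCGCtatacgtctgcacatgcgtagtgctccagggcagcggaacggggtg
Cox6a1, chr5:115348909-115349208, minus strand: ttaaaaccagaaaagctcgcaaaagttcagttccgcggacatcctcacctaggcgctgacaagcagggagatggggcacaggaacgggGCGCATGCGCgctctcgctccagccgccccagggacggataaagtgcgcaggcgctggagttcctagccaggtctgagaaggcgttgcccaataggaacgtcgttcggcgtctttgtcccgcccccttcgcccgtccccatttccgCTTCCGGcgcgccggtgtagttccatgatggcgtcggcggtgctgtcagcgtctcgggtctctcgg
Ndufs4, chr13:114388045-114388344, minus strand: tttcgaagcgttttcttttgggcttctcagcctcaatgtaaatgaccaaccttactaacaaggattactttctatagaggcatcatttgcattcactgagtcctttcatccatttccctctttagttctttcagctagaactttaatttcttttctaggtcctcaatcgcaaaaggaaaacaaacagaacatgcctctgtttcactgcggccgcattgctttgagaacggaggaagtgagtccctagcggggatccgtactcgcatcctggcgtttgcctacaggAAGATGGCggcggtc
Cox7a2l, chr17:83514284-83514583, minus strand: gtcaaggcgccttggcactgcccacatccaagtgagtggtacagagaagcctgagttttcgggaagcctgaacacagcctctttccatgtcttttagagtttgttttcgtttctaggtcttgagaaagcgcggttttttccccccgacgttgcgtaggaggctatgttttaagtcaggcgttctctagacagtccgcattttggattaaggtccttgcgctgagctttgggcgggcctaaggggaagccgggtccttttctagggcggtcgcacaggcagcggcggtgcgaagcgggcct
Sdhb carried an NRF1 core that begins 54 bases before the start site and an ETS core just after it, and the Cox7a2l window held none of the 4 cores. A match describes letters, not a bound site. Of the 27 members that held at least 1 core, 25 were lower in miR-Ctrl BDL with TMM scaling (median log2 fold change -0.56), as were 25 of the 30 tested members that held none (median -0.59). Among all genes tested 16.6% were lower there. By core, 7 of 9 members with NRF1, 13 of 13 with ETS, 8 of 8 with YY1 and 2 of 2 with ERR were lower. Without the core the counts were 43 of 48, 37 of 44, 42 of 49 and 48 of 55. Ndufa8 and Ndufaf5 held the NRF1 core and were not called.

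With TMM scaling most of the chain was lower in miR-Ctrl BDL than without BDL. Of the 70 members tested 60 were lower and 0 higher (edgeR adjusted p under 0.05), where 16.6% of all 13072 genes tested were lower and 19.1% higher. With library size alone 0 were lower and 12 higher, where 2.1% of all genes were lower and 71.6% higher. The median log2 fold change of the members was -0.59, against -0.01 for all genes, and all 70 lay below 0 with TMM. The mice of the groups did not overlap, with miR-Ctrl BDL lower, for 59 of the 70, against 15.5% of all genes. Leaving out any 1 mouse gave 56 to 64 lower members, where 12.99% to 20.07% of all genes were lower. In bulk liver, fewer cells of a type and less RNA per cell cannot be told apart.

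With the inhibitor of miR-873-5p 36 of the 72 members were lower than without BDL and 1 was higher (edgeR adjusted p under 0.05), where 8.44% of all 13130 genes were lower and 13.1% higher. The higher gene was Cox6b2, which had the mean count that the members needed in the table of the BDL groups alone. It became a member through the mice in which it was high, so its call is no test of a rise. With library size alone 0 were lower and 29 higher, where 0.998% of all genes were lower and 76.6% higher. The median of the members with TMM was -0.46, against -0.01 for all genes, and 70 of the 72 lay below 0. For 29 members all mice with the inhibitor lay below all mice without BDL, against 9.08% of all genes. The number of members that edgeR called lower moved with single mice, as did the share of all genes called lower. It was 61 without mouse 2 of the inhibitor group (13.4% of all genes), 12 without its mouse 3 (2.68%) and 15 without its mouse 4 (3.34%). It was 21, 23 and 21 without no BDL mouse 1, 2 or 3 (4.48%, 4.51% and 5.52%).

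Mouse 2 of the inhibitor group, which the authors left out of their table of the BDL groups, stood above the other mice of its group. Over the 60 subunits of complexes I to IV, the median log2 level relative to the no BDL mean was -0.39, -0.14, -0.74 and -0.81 in mice 1 to 4 of that group. The miR-Ctrl BDL mice lay at -0.65, -0.83, -0.46 and -0.55, and the no BDL mice between -0.18 and 0.19. All 60 subunits lay below the no BDL mean in 5 of the 8 mice with BDL, against 56 and 59 in miR-Ctrl BDL mice 3 and 4 and 44 in that mouse 2.

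**Figure D2:**
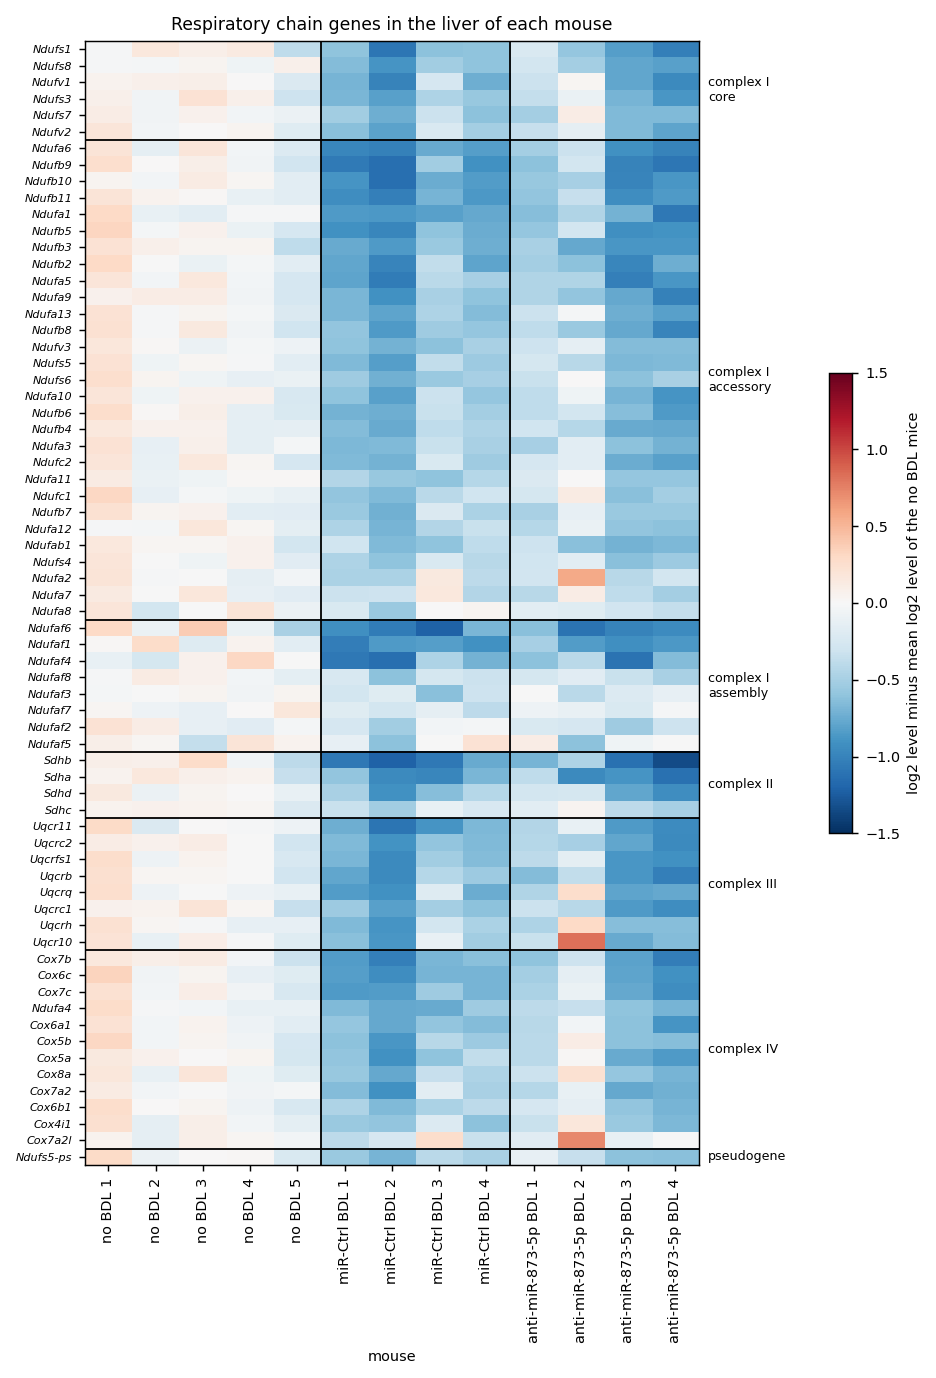
Log2 normalized level of respiratory chain genes (rows, grouped by complex) in each of the 13 mice (columns), minus the mean of the 5 no BDL mice, without the 3 tissue isoforms, with blue for lower and red for higher (TMM scaling). Subunits are mostly blue in the mice with BDL, least so in mouse 2 of the inhibitor group; with library size alone their median fold changes turn positive.

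Complex I core subunits carry the flavin and the iron-sulfur clusters. With TMM scaling all 7 were lower in miR-Ctrl BDL (median -0.62) and 3 of 7 with the inhibitor (median -0.45), where 16.6% and 8.44% of all genes were lower. Library size alone turned the medians of these 7 to 0.16 and 0.35. Ndufs1, the largest iron-sulfur subunit, was at 104.2, 117.6, 112, 115.6 and 80.9 normalized CPM without BDL. It was at 69.2, 49.3, 68.2 and 69.1 in miR-Ctrl BDL and at 89.8, 70.1, 59.2 and 51.6 with the inhibitor. The miR-Ctrl BDL mice all lay below the no BDL range, and mouse 1 of the inhibitor group was inside it. Its log2 fold changes were -0.71 ± 0.15 and -0.62 ± 0.18 (SE, edgeR adjusted p = 0.00498 and 0.0341). The call in miR-Ctrl BDL held without any 1 mouse, and the call with the inhibitor was lost without its mouse 3 or 4 or no BDL mouse 1, 2, 3 or 4, at an adjusted p of up to 0.103.

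Accessory subunits surround that core. With TMM scaling 26 of the 29 were lower in miR-Ctrl BDL (median -0.56) and 20 with the inhibitor (median -0.48). Of all genes 16.6% and 8.44% were lower. With library size alone 0 of the 29 were lower in either, where 2.1% and 0.998% of all genes were. Ndufb9, of the membrane arm, was at 209.2, 176.2, 186.1, 169.1 and 143.9 normalized CPM without BDL. Its level was 83.7, 80.2, 122.2 and 93.5 in miR-Ctrl BDL and 114.2, 144.9, 87.2 and 82.4 with the inhibitor. The miR-Ctrl BDL mice all lay below the no BDL range, and mouse 2 of the inhibitor group just entered it. The log2 fold changes were -0.88 ± 0.15 and -0.70 ± 0.18 (SE, edgeR adjusted p = 0.00203 and 0.0240). The second call was lost without mouse 3 or 4 of the inhibitor group or no BDL mouse 1, 2 or 3, at an adjusted p of up to 0.0797.

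Ndufa6, whose window carries the NRF1 core printed above, was at 150.5, 120.1, 150.3, 128.3 and 114.7 normalized CPM without BDL, 66.7, 65.2, 78.1 and 74.2 in miR-Ctrl BDL and 92.6, 105.6, 70.1 and 65.7 with the inhibitor. Neither BDL group overlapped the no BDL mice. The log2 fold changes were -0.88 ± 0.11 and -0.65 ± 0.16 (SE, edgeR adjusted p = 0.000574 and 0.0210), and the second lost its call without mouse 3 or 4 of the inhibitor group or no BDL mouse 1 or 3 (adjusted p up to 0.0726). Ndufb3, also of the membrane arm, was at 31.2 to 47.5, 22.5 to 27.7 and 21.98 to 29.01 in the 3 groups, again without overlap. Its log2 fold changes were -0.72 ± 0.12 and -0.74 ± 0.14 (SE, edgeR adjusted p = 0.00191 and 0.00650), and both calls held without any 1 mouse.

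The accessory genes not called in miR-Ctrl BDL were Ndufa2, Ndufa7 and Ndufa8, at log2 fold changes of -0.26, -0.19 and -0.16 (edgeR adjusted p = 0.173, 0.285 and 0.433). For Ndufa2 the 2 mice absent from the authors' table of the BDL groups were the highest of their groups, at 89.4 and 120 normalized CPM, against 73.7 to 92.3 without BDL.

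Assembly factors join the modules of complex I and are not part of the finished enzyme. With TMM scaling 4 of 8 were lower in miR-Ctrl BDL and 3 with the inhibitor (medians -0.34 and -0.32), where 16.6% and 8.44% of all genes were lower. With library size alone the medians of the 8 were 0.46 and 0.51. Ndufaf6, Ndufaf1 and Ndufaf4 were lower in both comparisons. Ndufaf6 was at 12.3, 9.34, 13.1, 9.21 and 6.92 normalized CPM without BDL, at 5, 4.53, 3.999 and 6.001 in miR-Ctrl BDL and at 6.25, 4.33, 4.71 and 4.92 with the inhibitor. All 8 mice with BDL lay below all 5 without it. Its log2 fold changes of -1.03 ± 0.21 and -0.98 ± 0.21 (SE, edgeR adjusted p = 0.00460 and 0.0113) were the lowest of the members in both comparisons. Ndufaf1, which acts early in assembly, was at 19.5 to 27.3, 10.7 to 12.4 and 11.7 to 15.7, with no overlap (-0.92 ± 0.12 and -0.78 ± 0.14, edgeR adjusted p = 0.000589 and 0.00540). Ndufaf4 had log2 fold changes of -0.83 ± 0.16 and -0.68 ± 0.16 (adjusted p = 0.00403 and 0.0164, edgeR). The calls of these 3 genes held without any 1 mouse.

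Ndufaf2, Ndufaf3, Ndufaf5 and Ndufaf7 passed the test in neither comparison. For Ndufaf7, a methyltransferase that acts on a core subunit, the log2 fold changes were -0.24 ± 0.11 and -0.09 ± 0.10 (SE, edgeR adjusted p = 0.109 and 0.544).

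Complex II is the complex of the chain made wholly from nuclear genes. With TMM scaling 3 of its 4 genes were lower in each BDL group (medians -0.68 and -0.66), where 16.6% and 8.44% of all genes were lower. With library size alone the medians of the 4 were 0.12 and 0.15. Sdha, which carries the flavin, was at 524.3, 561.2, 534.2, 525.1 and 396.7 normalized CPM without BDL, at 334.4, 260.9, 255.7 and 312.4 in miR-Ctrl BDL and at 386.1, 260.5, 272.8 and 231.2 with the inhibitor. No mouse with BDL reached the range of the others. The log2 fold changes were -0.78 ± 0.15 and -0.80 ± 0.19 (SE, edgeR adjusted p = 0.00326 and 0.0173). Sdhb, the iron-sulfur subunit, was at 213.6, 211.6, 243, 193.4 and 152.7 without BDL, at 95.1, 86.1, 95.1 and 118.2 in miR-Ctrl BDL and at 123, 145, 92.2 and 78.9 with the inhibitor. Here too the ranges did not overlap, and the log2 fold changes were -1.02 ± 0.15 and -0.86 ± 0.20 (SE, edgeR adjusted p = 0.00101 and 0.0156). Without mouse 3 of the inhibitor group the adjusted p rose to 0.0597 for Sdha and 0.0568 for Sdhb, and without its mouse 4 to 0.0563 for Sdha.

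Sdhc and Sdhd are the membrane anchors of complex II. Sdhd was at 214.2, 181.9, 199.9, 194.8 and 178.9 normalized CPM without BDL, 137.9, 103.2, 123.9 and 143.3 in miR-Ctrl BDL and 160.4, 160.8, 112.4 and 101 with the inhibitor, with no overlap. Log2 fold changes were -0.59 ± 0.12 and -0.51 ± 0.16 (SE, edgeR adjusted p = 0.00464 and 0.0461), the second not called without any 1 of 7 mice (adjusted p up to 0.137, without mouse 3 of the inhibitor group). Sdhc was at 151.2, 152.3, 151.4, 149.1 and 125.5 without BDL, 115, 100.9, 135.1 and 123.5 in miR-Ctrl BDL and 130.3, 149.6, 110.8 and 102.7 with the inhibitor, and the ranges overlapped. Its log2 fold changes were -0.28 ± 0.11 and -0.22 ± 0.13 (SE, edgeR adjusted p = 0.0775 and 0.264). The first became -0.35 (adjusted p = 0.0274) without miR-Ctrl BDL mouse 3 and -0.32 (adjusted p = 0.0425) without no BDL mouse 5.

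A quotient of 2 genes within a library does not depend on the scaling. The raw counts of Sdhb over those of Sdhc, a quotient chosen after the values were seen and not tested, were 1.22 to 1.605 without BDL, 0.704 to 0.957 in miR-Ctrl BDL and 0.768 to 0.969 with the inhibitor. All mice with BDL thus lay below all others in this quotient.

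**Figure D3:**
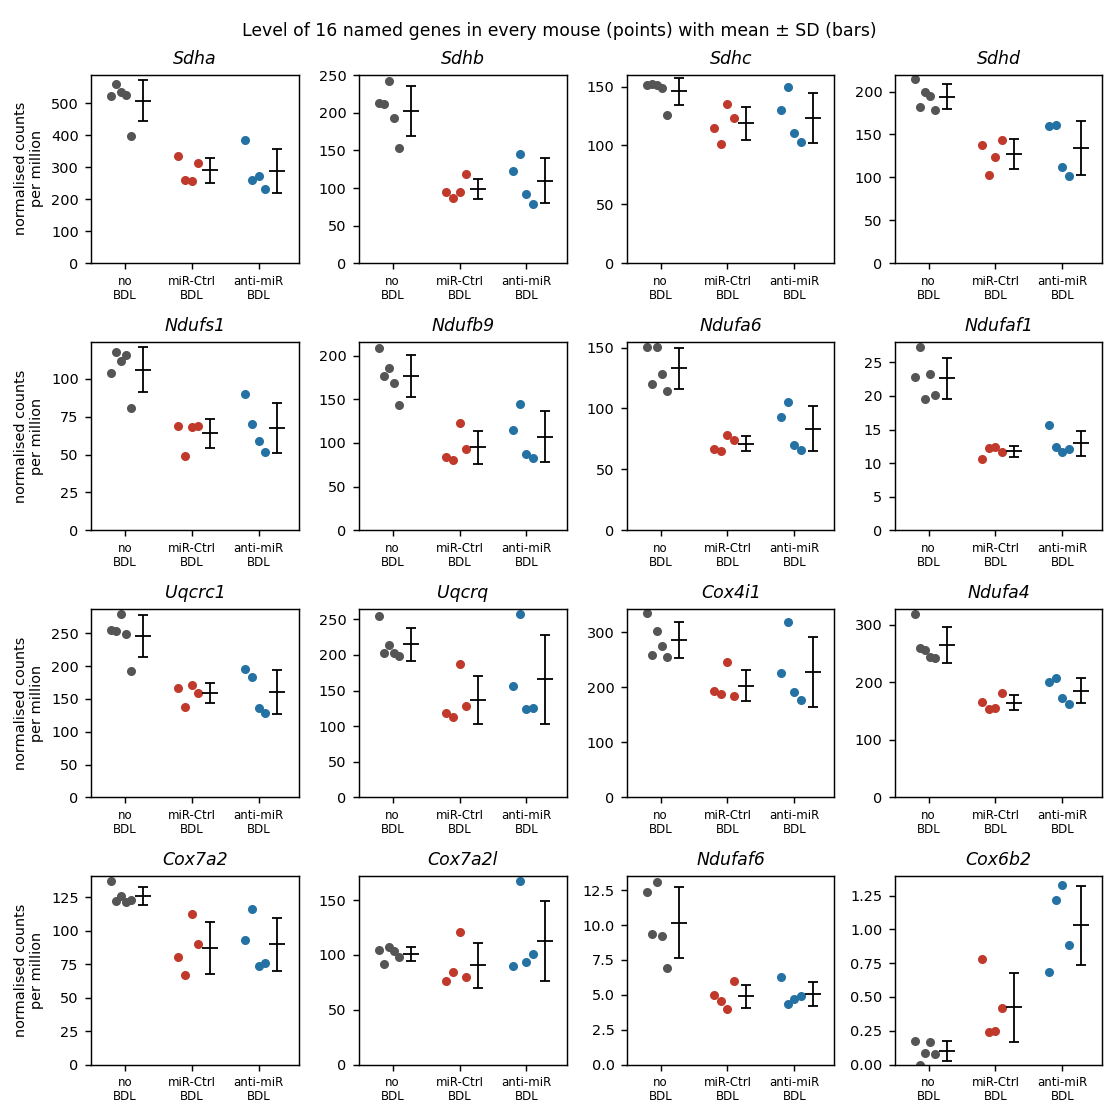
Normalized CPM (counts per effective library, y axis, TMM scaling) of named genes in each mouse (points), with the mean and SD of each group, for no BDL (n = 5), miR-Ctrl BDL (n = 4) and anti-miR-873-5p BDL (n = 4). Sdha and Sdhb are separated from no BDL in both BDL groups and Cox7a2l is not; with library size alone the fold changes of Sdha turn from -0.78 and -0.80 to 0.03 and 0.02.

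With TMM scaling all 8 complex III genes were lower in miR-Ctrl BDL (median -0.64) and 3 of 8 with the inhibitor (median -0.53). Of all genes 16.6% and 8.44% were lower. Library size alone gave medians of 0.15 and 0.26 for the 8 genes. Uqcrc1, a core protein on the matrix side, was at 255.4, 253.6, 279.6, 249.5 and 192.6 normalized CPM without BDL, at 166.9, 138.4, 171.7 and 158.9 in miR-Ctrl BDL and at 195.9, 182.7, 135.9 and 128 with the inhibitor. Mouse 1 of the inhibitor group alone entered the no BDL range. The log2 fold changes were -0.61 ± 0.13 and -0.59 ± 0.17 (SE, edgeR adjusted p = 0.00537 and 0.0342), the second not called without mouse 3 or 4 of the inhibitor group or no BDL mouse 1, 2, 3 or 4 (adjusted p up to 0.107). Uqcrq, a small subunit of the complex, was at 255.3, 203.2, 213.8, 203.1 and 198.5 without BDL, at 119.1, 113.5, 187.1 and 127.7 in miR-Ctrl BDL and at 156.8, 257.1, 123.5 and 125.4 with the inhibitor. Mouse 2 of the inhibitor group was the highest of all 13 mice. The log2 fold change was -0.63 ± 0.16 (SE, edgeR adjusted p = 0.0118) in miR-Ctrl BDL and -0.36 ± 0.21 (adjusted p = 0.262) with the inhibitor, and the latter became -0.64 (adjusted p = 0.00819) without that mouse. Uqcr10 had 144.9 in the same mouse, against 64.7, 48.2 and 51.9 in the others of its group. Uqcr11, whose window holds an ETS and an NRF1 core, had log2 fold changes of -0.83 ± 0.13 and -0.54 ± 0.18 (SE, edgeR adjusted p = 0.00123 and 0.0562).

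With TMM scaling 11 of the 12 complex IV genes were lower in miR-Ctrl BDL (median -0.59) and 4 with the inhibitor (median -0.44). Of all genes 16.6% and 8.44% were lower. Library size alone turned the medians of the 12 genes to 0.20 and 0.35. Per kilobase of principal transcript, complex IV genes had the highest levels of the chain, with Ndufa4 at 342.9, Cox6a1 at 326.4 and Cox4i1 at 316.4 normalized CPM per kilobase over the 13 mice. Cox4i1, a regulatory subunit, was at 333.6, 258.9, 301.7, 274.7 and 255.4 normalized CPM without BDL, at 193, 187.6, 245.1 and 184.6 in miR-Ctrl BDL and at 224.9, 318.3, 191.8 and 176.8 with the inhibitor. The miR-Ctrl BDL mice lay below the no BDL range and mouse 2 of the inhibitor group inside it. The log2 fold change was -0.47 ± 0.13 (SE, edgeR adjusted p = 0.0177) in miR-Ctrl BDL, with an adjusted p of 0.0513 without its mouse 2 and 0.0553 without its mouse 4. With the inhibitor it was -0.30 ± 0.18 (adjusted p = 0.263, edgeR), and -0.50 (adjusted p = 0.0237) without mouse 2.

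Ndufa4, first described as part of complex I and now placed in complex IV, was at 318.9, 259.7, 255.9, 243.7 and 242.7 normalized CPM without BDL, 166, 154.2, 155.3 and 181.4 in miR-Ctrl BDL and 199.8, 206.6, 173.1 and 162 with the inhibitor. Neither BDL group overlapped no BDL. The log2 fold changes were -0.66 ± 0.12 and -0.49 ± 0.13 (SE, edgeR adjusted p = 0.00241 and 0.0303), the second not called without mouse 3 or 4 of the inhibitor group or no BDL mouse 1, 2, 3 or 4 (adjusted p up to 0.0952). Cox7b and Cox6c, small membrane subunits, had log2 fold changes of -0.78 ± 0.13 and -0.77 ± 0.12 in miR-Ctrl BDL (SE, edgeR adjusted p = 0.00173 and 0.00134).

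**Figure D4:**
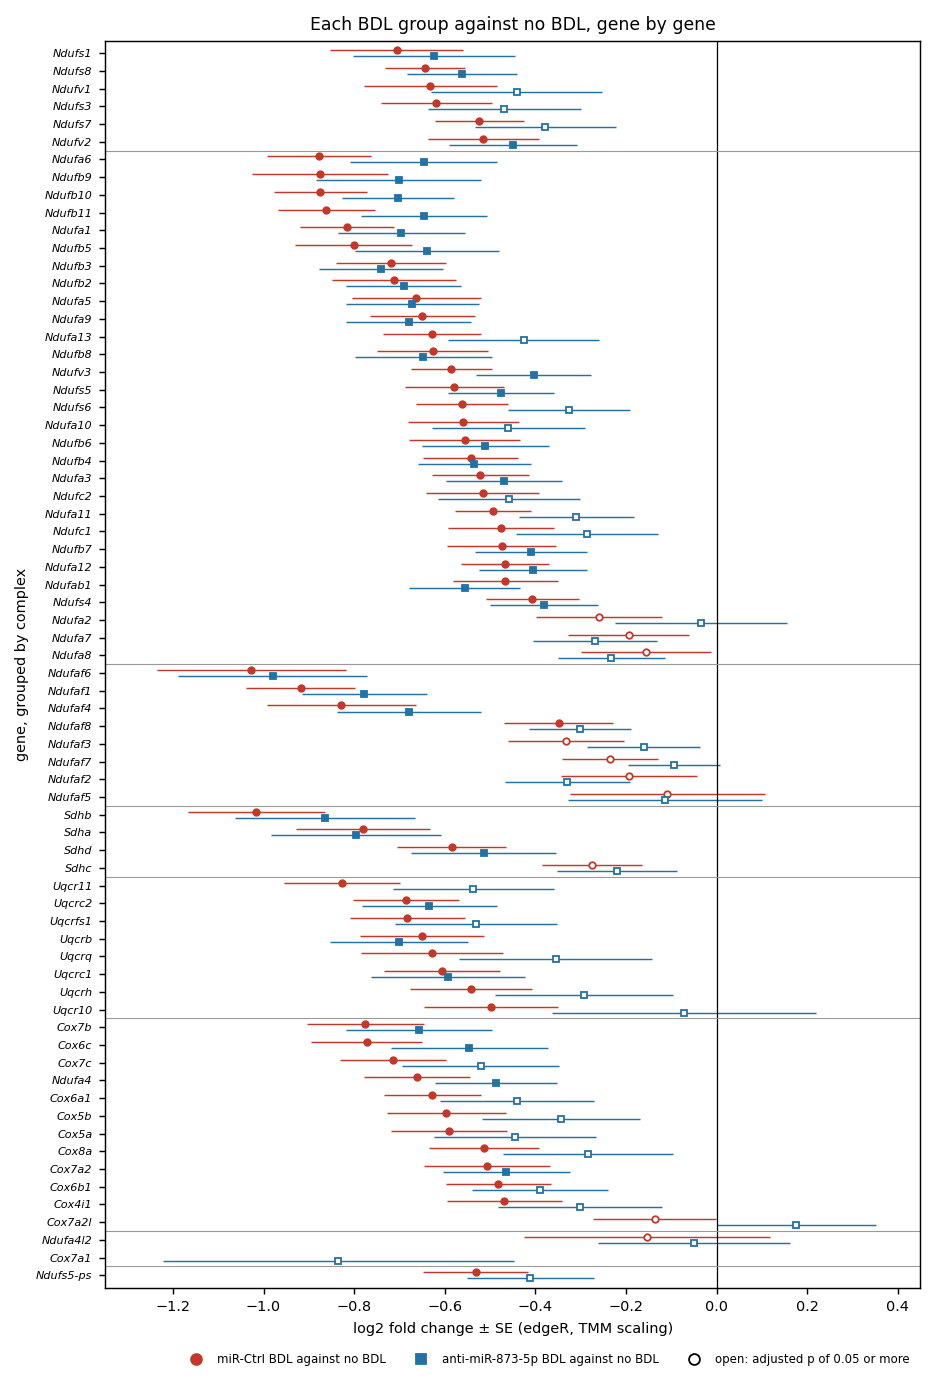
Log2 fold change with its SE (x axis, edgeR with TMM scaling) of respiratory chain genes without Cox6b2 (y axis, grouped by complex) in each BDL group against no BDL, with filled symbols for an adjusted p under 0.05. Symbols lie mostly left of 0, and Cox7a2l in the inhibitor group lies at 0.18; with library size alone the median of the members lies right of 0.

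Cox7a2l was not called in any comparison with TMM scaling and all mice of each table. With library size alone it was called higher in both BDL groups, at 0.64 and 0.97 (edgeR adjusted p = 0.00467 and 0.00131). There 71.6% and 76.6% of all genes were higher. Without the 20 top genes it was at 0.26 and 0.54 (edgeR adjusted p = 0.0994 and 0.0242). Its level was 104.7, 91.6, 107.7, 103.2 and 98.4 normalized CPM without BDL, 76.5, 84.9, 121 and 80.3 in miR-Ctrl BDL and 89.7, 167.2, 93.5 and 100.7 with the inhibitor, and the ranges overlapped. The log2 fold changes were -0.14 ± 0.14 (SE, edgeR adjusted p = 0.469) and 0.18 ± 0.18 (adjusted p = 0.509). Without miR-Ctrl BDL mouse 3 the first became -0.31 (adjusted p = 0.0213), and without mouse 2 of the inhibitor group the second turned to -0.07. Its paralogue Cox7a2, the liver form of the subunit, was at 137.2, 121.9, 125.6, 121.5 and 122.8 without BDL, 80.1, 66.5, 112.6 and 89.8 in miR-Ctrl BDL and 93.2, 116.4, 73.8 and 76.1 with the inhibitor, with no overlap. Cox7a2 had log2 fold changes of -0.51 ± 0.14 and -0.46 ± 0.14 (SE, edgeR adjusted p = 0.0179 and 0.0407). The first lost its call without miR-Ctrl BDL mouse 1 (adjusted p = 0.0515), and the second without any 1 mouse except mouse 2 of the inhibitor group (adjusted p up to 0.124).

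The quotient of the raw counts of Cox7a2l over Cox7a2 was 0.763, 0.751, 0.858, 0.8498 and 0.801 without BDL, 0.955, 1.28, 1.07 and 0.894 in miR-Ctrl BDL and 0.963, 1.44, 1.27 and 1.32 with the inhibitor. All mice with BDL lay above all mice without it. The mean log2 quotient was higher by 0.37 and 0.62 (exact two-sided permutation test, p = 0.0159 each, the smallest that 5 against 4 mice allow, and 0.0476 after Benjamini-Hochberg adjustment over 9 tests). With 1 mouse fewer the smallest p is larger, and the adjusted p of this exact test was 0.0857 to 0.107. Cox7a2 overlaps Tmem30a by 2482 bases in the annotation, Tmem30a had 2000 counts per mouse on average against 1418 for Cox7a2, and the library kit does not mark strand. The part of that overlap in the quotient was not tested.

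Ndufa4l2, a hypoxia-inducible paralogue of Ndufa4, had 16 to 44 raw counts per mouse. Its log2 fold changes were -0.15 ± 0.27 and -0.05 ± 0.21 (SE, edgeR adjusted p = 0.695 and 0.890). The quotient of its counts over those of Ndufa4 was 0.00587 to 0.00978 without BDL, 0.00761 to 0.01701 in miR-Ctrl BDL and 0.00992 to 0.0103 with the inhibitor. The mean log2 quotient was higher by 0.46 in miR-Ctrl BDL (exact permutation p = 0.143, adjusted p = 0.321) and by 0.45 with the inhibitor (exact permutation p = 0.0159, adjusted p = 0.0476). The latter p is the smallest that 5 against 4 mice allow. Without any 1 mouse the adjusted p of this exact test with the inhibitor was 0.0857 to 0.107. Ndufa4l2 overlaps Shmt2, a gene with 2716 counts per mouse on average, by 32 bases, and the part of that overlap was not tested. Cox7a1, the heart and muscle form, had 2 to 20 counts per mouse, and its log2 quotient to Cox7a2 differed by -0.70 and -0.33 (exact permutation p = 0.286 and 0.413, adjusted p = 0.450 and 0.531).

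Cox6b2, the testis form of a complex IV subunit, was a member through the mice in which it was high. Its mean raw count was 3.67 and 8.11 in the tables with no BDL mice and 12.7 in the table of the BDL groups, so its difference from no BDL is a description with no test. Its raw counts were 2, 0, 1, 2 and 1 without BDL, 13, 4, 3 and 7 in miR-Ctrl BDL and 11, 16, 22 and 18 with the inhibitor. All mice with BDL lay above all others, at very low counts. Its summed counts per effective depth were 9.88 times those without BDL with the inhibitor (95% exact interval 4.31 to 27.9, 67 against 6 counts) and 4.24 times in miR-Ctrl BDL (1.72 to 12.6, 27 against 6). These intervals cover counting error only and, for a gene that became a member through its high mice, are no test. Cox6b1, its ubiquitous counterpart, was at 155.1 ± 19.8 normalized CPM without BDL (SD, n = 5).

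The inhibitor of miR-873-5p was compared directly with the control oligonucleotide in 3 against 3 mice. By edgeR 0 of the 72 members passed an adjusted p of 0.05, as did 0% of all 13746 genes, of which 6.28% had an unadjusted p under 0.05. Of the members 0 had an unadjusted p under 0.05, and DESeq2 also called 0. The median log2 fold change of the members was 0.05, against 0.01 for all genes. It was -0.08 without anti-miR-873-5p BDL mouse 1 and 0.13 without anti-miR-873-5p BDL mouse 4. The lowest p among the members belonged to Cox7a2l (0.23 ± 0.10), Cox6b2 (0.93 ± 0.46) and Ndufaf7 (0.18 ± 0.12), with edgeR adjusted p = 0.781, 0.781 and 0.824. With all 4 mice of each group, 0 of 67 members were called and the median was 0.12.

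Some members share sequence or position with other genes, so the authors' counting may have split their reads. Ndufs5-ps shares 72.6% of its 50-base windows with other transcripts, Ndufs5 among them. Its raw counts were 0.404 to 0.465 times those of Ndufs5 in all 13 mice, and its log2 fold changes were -0.53 ± 0.12 and -0.41 ± 0.14, beside -0.58 ± 0.11 and -0.48 ± 0.12 for Ndufs5, which shares 21.7% of its windows. Ndufaf2 shares 64.1% of its windows, and 11 members overlap another protein-coding gene.

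Other mitochondrial genes were set beside the chain. The counts that follow are of genes lower in miR-Ctrl BDL and then with the inhibitor, with TMM scaling, and with library size alone the median of each of these lists was positive. Among all genes tested 16.6% and 8.44% were lower, and 19.1% and 13.1% higher. ATP synthase genes, which make complex V, were lower for 15 of 17 and 5 of 17 (medians -0.58 and -0.46). Atp5k, a small membrane subunit, was at -0.80 ± 0.14 and -0.57 ± 0.14 (SE, edgeR adjusted p = 0.00216 and 0.0201) and Atp5md at -0.71 ± 0.11 and -0.55 ± 0.15 (adjusted p = 0.00103 and 0.0277). Assembly factors of complexes I, II and III outside the Nduf family were lower for 10 of 17 and 4 of 17 (medians -0.42 and -0.36). Among them Ecsit, of complex I, was at -0.83 ± 0.10 and -0.69 ± 0.13 and Uqcc1, of complex III, at -0.58 ± 0.11 and -0.51 ± 0.13 (edgeR adjusted p = 0.000438 and 0.00762 for Ecsit, 0.00389 and 0.0236 for Uqcc1). Complex IV assembly factors were lower for 10 of 21 and 5 of 21 (medians -0.32 and -0.22), with Taco1, a translation activator, at -0.73 ± 0.16 and -0.64 ± 0.16 and Surf1 at -0.72 ± 0.09 and -0.60 ± 0.10 (edgeR adjusted p = 0.00579 and 0.0194 for Taco1, 0.000509 and 0.00431 for Surf1).

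Tricarboxylic acid cycle enzymes were lower for 5 of 13 and 3 of 13 (medians -0.35 and -0.33), with the succinyl-CoA ligase subunits Sucla2 at -0.73 ± 0.11 and -0.71 ± 0.17 and Suclg1 at -0.71 ± 0.15 and -0.52 ± 0.17 (SE, edgeR adjusted p = 0.000952 and 0.0168 for Sucla2, 0.00462 and 0.0525 for Suclg1). Mitochondrial ribosomal proteins were lower for 37 of 77 and 23 of 77 (medians -0.29 and -0.23), with Mrps35 at -0.74 ± 0.14 and -0.49 ± 0.17 and Mrpl47 at -0.71 ± 0.14 and -0.56 ± 0.15. Import and outer membrane genes were lower for 2 of 11 and 0 of 11 (medians -0.18 and -0.18), where Tomm70a, an import receptor, had -0.43 ± 0.15 and -0.33 ± 0.13 (edgeR adjusted p = 0.0433 and 0.102) and Timm44 -0.39 ± 0.11 and -0.30 ± 0.13 (adjusted p = 0.0237 and 0.128). These import counts were near the shares of all genes, 16.6% and 8.44%. With the inhibitor 3 of these 11 had an unadjusted p under 0.05 by edgeR, and DESeq2 called 1 lower. Cytosolic ribosomal proteins were lower for 2 of 79 and 0 of 79 (medians 0.04 and 0.15), and 2 and 1 were higher, Rpl22l1 among them (0.72 ± 0.15 and 0.81 ± 0.19). With the inhibitor 9 of the 79 had an unadjusted p under 0.05 by edgeR, and DESeq2 called 1 lower. In the direct comparison of the BDL groups 0 genes of any of these lists were called by edgeR. Mitochondrially encoded subunits were not analysed here.

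**Figure D5:**
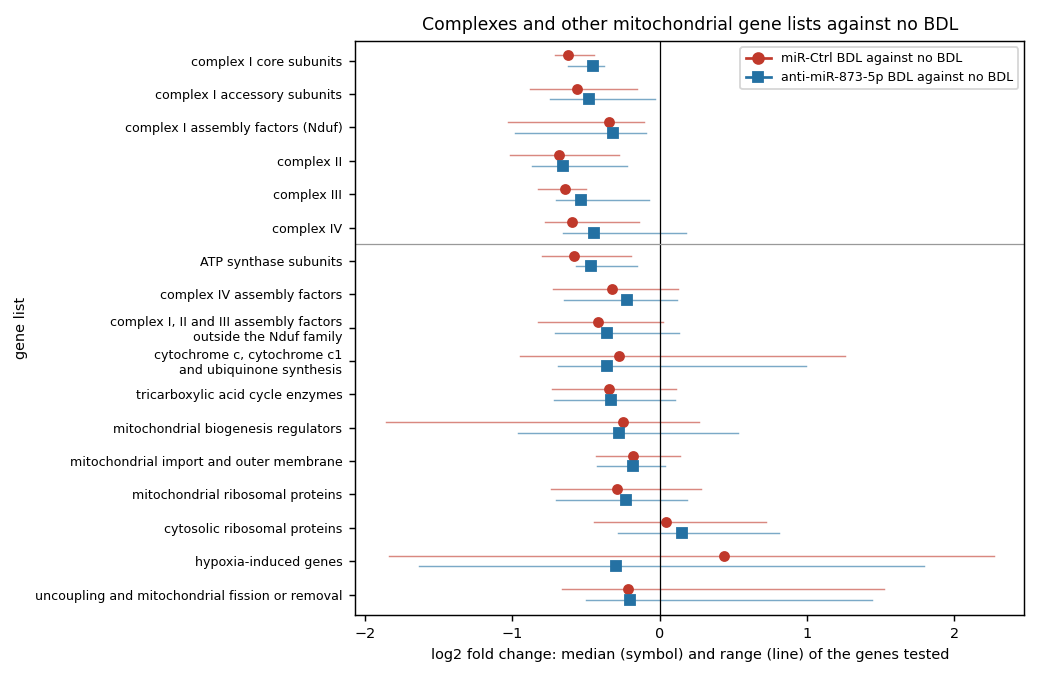
Median and range of the log2 fold changes (x axis, edgeR with TMM scaling) in both BDL groups, each set against no BDL, for the complexes and for other gene lists (y axis). ATP synthase genes have medians of -0.58 and -0.46, and cytosolic ribosomal proteins 0.04 and 0.15; with library size alone these medians lie above 0.

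With TMM scaling regulators of mitochondrial biogenesis were lower for 5 of 15 and 1 of 15 (medians -0.25 and -0.27). Of all genes 16.6% and 8.44% were lower and 19.1% and 13.1% higher. With library size alone the median of all genes was 0.79 and 0.82. The sign of smaller fold changes in this and the next paragraph therefore depends on the scaling. Ppara, a nuclear receptor of fatty acid oxidation, was at 200 ± 69.8 normalized CPM without BDL (SD, n = 5), 54.1 ± 11.4 in miR-Ctrl BDL and 101 ± 32.6 with the inhibitor (SD, n = 4 each). The fold changes on the log2 scale were -1.86 ± 0.29 and -0.96 ± 0.32 (SE, edgeR adjusted p = 0.00133 and 0.0576). Gabpa, which encodes the DNA-binding part of GABP, was lower in both with TMM scaling (-0.58 ± 0.10 and -0.46 ± 0.10, edgeR adjusted p = 0.00172 and 0.0124). Members with the ETS core had median log2 fold changes of -0.59 and -0.47, against -0.58 and -0.46 without it. A link to Gabpa was not tested. Genes of cytochrome c, cytochrome c1 and ubiquinone synthesis were lower for 5 of 16 and 3 of 16 (medians -0.27 and -0.35), and 1 was higher in each. That gene was Coq8b, needed for ubiquinone synthesis (1.26 ± 0.29 and 0.99 ± 0.31, edgeR adjusted p = 0.00821 and 0.0464), while Coq10a, which binds ubiquinone, had -0.95 ± 0.17 and -0.46 ± 0.18 (adjusted p = 0.00247 and 0.101).

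Genes of uncoupling and of mitochondrial fission or removal were lower for 4 of 10 and 1 of 10 (medians -0.21 and -0.20), and 2 and 1 were higher. For this list and the next the scaling was TMM, with which 16.6% and 8.44% of all genes were lower and 19.1% and 13.1% higher. With TMM scaling Ucp2, an inner membrane carrier, was higher (1.52 ± 0.32 and 1.44 ± 0.39, edgeR adjusted p = 0.00505 and 0.0283). Opa1, which fuses inner membranes, was lower with that scaling (-0.66 ± 0.13 and -0.50 ± 0.16, edgeR adjusted p = 0.00366 and 0.0458). Hypoxia-induced genes were lower for 2 of 10 and 2 of 10 (medians 0.44 and -0.30), and 3 and 1 were higher. Hk2, a hexokinase, had 2.27 ± 0.41 and 1.70 ± 0.59 (edgeR adjusted p = 0.00261 and 0.0664), and Adm, adrenomedullin, 2.03 ± 0.50 and 1.80 ± 0.49 (adjusted p = 0.0114 and 0.0293).

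Markers of liver and blood cell types were measured in the same mice, with calls from TMM scaling. With it 16.6% of all genes were lower and 19.1% higher in miR-Ctrl BDL, and 8.44% and 13.1% with the inhibitor. The summed level of 10 hepatocyte markers was 102916 to 123772 normalized CPM without BDL, 47964 to 80162 in miR-Ctrl BDL and 41618 to 97906 with the inhibitor, and 5 and 2 of 10 were lower. Most of that sum was Alb, at means of 83218, 46960 and 46583 in the 3 groups. With library size alone 2 of the 10 markers were lower and 3 higher in miR-Ctrl BDL, where 2.1% of all genes were lower and 71.6% higher. With the inhibitor 2 were lower and 2 higher, where 0.998% of all genes were lower and 76.6% higher. For 8 cholangiocyte markers the sums were 70.3 to 157.8, 507.8 to 1757 and 252.5 to 1704, with 6 of 7 tested higher in each BDL group. Most of these sums was Spp1, at means of 80.22, 1070 and 1055 normalized CPM in the 3 groups. For 8 macrophage markers the sums were 124.7 to 721.9, 903 to 2019 and 519.4 to 1601, with 7 and 3 of 8 higher. For 9 stellate cell and fibroblast markers the sums were 163.9 to 258.1, 274.4 to 822.4 and 247.8 to 1016, with 5 of 9 higher in each. For 7 neutrophil markers they were 8.58 to 22.6, 25.2 to 250 and 20.8 to 82.9, with 4 of 5 and 3 of 4 higher. For 7 endothelial markers the sums were 94.2 to 150.2, 33.9 to 149.9 and 48.9 to 142.6, and 0 and 1 of 7 were lower. The sums of 7 pericyte and smooth muscle markers were 13.1 to 22.7, 11.7 to 35.8 and 8.57 to 35.5, and those of 9 T, NK and B cell markers 3.46 to 7.24, 1.42 to 10.9 and 0.759 to 6.19. Erythroid markers, 4 in number, summed to 589.2 to 3275, 122.6 to 744.2 and 129 to 1351, with 1 of 3 tested lower in each. Both BDL groups overlapped no BDL in the sums of the last 4 lists, endothelial to erythroid. In the macrophage, stellate cell and neutrophil sums the inhibitor group also overlapped no BDL, and miR-Ctrl BDL did not. Tnnc2 of skeletal muscle and Lep of fat were at 0 in every mouse. The part of these cells in the levels of the respiratory chain genes was not tested.

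Outside the chain, the genes whose log2 level over the 13 mice was most like the mean of the 60 subunits were Atp5md (Pearson r = 0.988), Atp5h (0.988), Atp5g3 (0.985), Aurkaip1 (0.982) and Atp5pb (0.9802), out of 11297 genes with at least 10 counts in every mouse. These points share groups and library scaling, so the values describe and carry no test. Among the members Uqcrfs1, the Rieske protein of complex III, was most like that mean (0.995), and Ndufaf5 (0.1499), Ndufa4l2 (0.236) and Cox7a2l (0.414) were least like it.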

How the data were processed

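Liver RNA was prepared with TRIZOL and the TruSeq RNA v2 kit, which does not mark strand, and sequenced as single 50-nt reads. Per the labels and the study's methods, the authors used CASAVA 1.8.2, FastQC, Trim Galore and TopHat against mm10, and DESeq2. The counting program and annotation are not given in the sources used here. The deposited files are 3 tables of raw counts per Entrez gene, 1 for each pair of groups. Each table was tested separately.

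Symbols came from RefSeq (GRCm38.p6), and 59 to 71 IDs per table had none. Genes were kept with filterByExpr, scaled with TMM and tested with the quasi-likelihood test of edgeR 4.0.16 in R 4.3.3, with Benjamini-Hochberg adjusted p under 0.05. SE is the absolute log2 fold change over the square root of F. Levels of the 13 mice are CPM on the TMM-scaled library size. The procedure was tested on simulated counts. Quotients of counts (with 0.5 added for the log2) were compared with an exact two-sided permutation test in SciPy 1.17.1. Principal transcript lengths came from GENCODE.

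Alternatives were other scalings and filters, DESeq2 1.42.0, all groups in 1 fit, the replicate number as a block and leaving out each mouse. Members, lists and tests were chosen with earlier results of these data known. Named genes were the 2 most abundant of each complex, paralogue pairs, the 5 lowest and highest called per comparison (the 3 lowest p where none was called), all of complex II, and 2 per list; other names were chosen after their values were seen. A member that the rule named is not reported here, though counted. No source says how the mice were caged or the RNA batched, so p-values measure the spread between these mice.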

Additional observations from a re-analysis of the deposited data

Results flagged for a closer look

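Among the named genes 62 groups of 4 or 5 mice were examined with Dixon's test, and in 8 of them the highest or lowest mouse lay far from the next for the range of its group. Chance gives about 1 in 20. The values are normalized CPM. In the no BDL group mouse 1 was highest for Cox7a2 (137.2, next 125.6), Ndufa4 (318.9, next 259.7) and Uqcrq (255.3, next 213.8), and mouse 5 was lowest for Sdha (396.7, next 524.3) and Sdhc (125.5, next 149.1). In miR-Ctrl BDL mouse 3 was highest for Cox4i1 (245.1, next 193) and mouse 2 lowest for Ndufs1 (49.3, next 68.2). With the inhibitor mouse 2 was highest for Cox7a2l (167.2, next 100.7). Over all members 18 of 215 groups were of this kind, 7 of them with mouse 2 of the inhibitor group highest and 5 with no BDL mouse 1 highest.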

How the results depend on the processing

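Library size alone moves all genes up together (medians 0.79 and 0.82), so the sign of a fold change against no BDL moves with the scaling. With it 12 members were called in miR-Ctrl BDL, all higher (median 0.21), where 71.6% of all genes were higher, and 29 with the inhibitor, all higher (median 0.34), where 76.6% were. With library size without the 20 top genes 13 members were called in miR-Ctrl BDL, all lower (median -0.17). Of all genes 4.758% were lower there and 45.72% higher. With the inhibitor and that scaling 6 members were called, 4 lower and 2 higher (median -0.0948). There 2.315% of all genes were lower and 38.32% higher. Log2 fold changes that turned positive with library size alone were, in miR-Ctrl BDL, Cox4i1 0.32, Cox7a2 0.28, Cox7a2l 0.64, Ndufa4 0.15, Ndufa4l2 0.65, Ndufaf7 0.57, Ndufb3 0.079, Ndufs1 0.087, Sdha 0.028, Sdhc 0.51, Sdhd 0.21, Uqcrc1 0.18 and Uqcrq 0.15. With the inhibitor they were Cox4i1 0.49, Cox7a2 0.34, Ndufa4 0.33, Ndufa4l2 0.75, Ndufa6 0.14, Ndufaf1 0.056, Ndufaf4 0.13, Ndufaf7 0.74, Ndufb3 0.078, Ndufb9 0.095, Ndufs1 0.18, Sdha 0.016, Sdhc 0.59, Sdhd 0.28, Uqcrc1 0.20 and Uqcrq 0.44. Without the 20 top genes they were Cox7a2l 0.26, Ndufa4l2 0.27, Ndufaf7 0.18 and Sdhc 0.14 in miR-Ctrl BDL and Cox4i1 0.062, Ndufa4l2 0.32, Ndufaf7 0.30, Sdhc 0.15 and Uqcrq 0.0033 with the inhibitor. With upper quartile scaling Ndufa4l2 turned to 0.00249 with the inhibitor. Leaving out each mouse it ranged from -0.12 to 0.032, the latter without no BDL mouse 4.

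Without mouse 2 of the inhibitor group 61 members were lower and 1 higher against no BDL, where 13.36% of all genes were lower and 18.39% higher. Cox7a2l turned to -0.073 there. Leaving out each mouse in turn gave 56 to 64 calls in miR-Ctrl BDL, all lower (medians -0.65 to -0.52), where 12.99% to 20.07% of all genes were lower. With the inhibitor it gave 13 to 62 calls, 1 of them higher each time (medians -0.60 to -0.37), where 2.677% to 13.36% of all genes were lower. Between the BDL groups it gave 0 calls (medians -0.08 to 0.13). For the log2 quotient Cox7a2l over Cox7a2 it gave 0.27 to 0.45, 0.55 to 0.74 and 0.09 to 0.34 in the 3 comparisons, for Ndufa4l2 over Ndufa4 0.22 to 0.60, 0.37 to 0.55 and -0.20 to 0.37, and for Cox7a1 over Cox7a2 -1.19 to -0.19, -0.55 to -0.08 and -0.22 to 0.56. Without the mice the authors left out, Cox7a2l over Cox7a2 differed by 0.36 and 0.55 and Ndufa4l2 over Ndufa4 by 0.46 with the inhibitor, at an adjusted p over 0.05 because fewer mice raise the smallest p. Between the BDL groups the latter was -0.00199 with 1 count added and -0.0113 with all mice.

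Mice of different groups share replicate numbers. Correlations of same-numbered deviations ran from -0.21 to 0.38, the highest for mouse 1 between the BDL groups. These few values cannot show whether the numbers mark pairs or batches, and the main fits used no pairing. With the replicate block 58 members were lower and 0 higher in miR-Ctrl BDL, where 14.5% of all genes were lower and 16.59% higher. With the inhibitor 25 were lower and 1 higher, where 5.682% of all genes were lower and 11.04% higher. Between the BDL groups 0 members and 0% of all genes were called with the block. The quotient differences were 0.37 and 0.62 for Cox7a2l over Cox7a2 and 0.41 for Ndufa4l2 over Ndufa4, where 4 pairs cannot reach an adjusted p under 0.05. DESeq2, its size factors, other count filters and 1 fit of all groups kept the direction of both medians. The number of mice limits the precision of genes with few counts such as Cox6b2, Cox7a1 and Ndufa4l2.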
